A study of Mus musculus with 74 samples.

Results

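The fibrillar and fibril-associated collagen chains described here were the products of 10 genes, Col1a1, Col1a2, Col3a1, Col5a1, Col5a2, Col5a3, Col11a1, Col12a1, Col14a1 and Col16a1. They were chosen by gene name, with no measured value in the rule. All 10 were found in each of the 5 tables with group means, which held 18208 genes for Her2, 19320 for C3Tag, 17270 for BALB, 17351 for SEAGN and 17829 for a table deposited under the name of AKR.

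Bulk RNA-seq was performed on paired primary mammary tumors (PT) and lung metastases (Lung met) of transgenic mice, 74 samples in all. All animals were female F1 offspring of a transgenic FVB male and a wild-type female. In the driver cohort the mother was FVB/NJ, and the transgene was MMTV-neu (Her2), MMTV-Myc (Myc) or C3(1)/TAg (C3Tag), with 6 PT and 6 Lung met for Her2 and Myc and 7 of each for C3Tag. In the PyMT-F1 cohort the father carried MMTV-PyMT and the mother was BALB/cJ (BALB), SEA/GnJ (SEAGN) or AKR/J (AKR), with 6 PT and 6 Lung met per cross by sample title. MMTV, the promoter of mouse mammary tumor virus, and the C3(1) promoter direct the oncogene to the mammary epithelium, so the fibroblasts and vessels of these tumors carry the transgene without being its intended target. All primary tumors of an animal were combined before fragments were taken, whereas whole metastases were used. By the methods, driver animals with a single tumor had it removed by surgery. They were then aged for a set time or to a humane endpoint. PyMT animals were kept to a humane endpoint with the tumor in place, and the labels give no ages. PT and Lung met of the driver animals that had surgery therefore also differ in the time of collection.

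Each value below is the authors' mean of normalised reads over the samples of 1 tissue, and no value of a single sample was analysed here. No SD, n or test can therefore be attached to any of them. A chain was counted as lower or higher where its Lung met mean was at least 2-fold below or above its PT mean, and each count is set beside the percentage of all genes of the same table that passed the same limit. The tables were normalized separately, so levels are compared between tissues only within a table. For Myc only a p-value and an FDR per gene were provided, which were made by the authors' comparison and are not used, so none of the 10 chains has a value for Myc although all 10 are listed there. The header of the table named for AKR states no strain, and a few of its entries, checked by eye against the study's lists, belonged to a BL6 cross, so its strain is unsettled. It is called the AKR-named table and counted apart. For several PyMT-F1 libraries the title names one strain and the genotype label another, so which libraries entered each PyMT-F1 table follows the table's name only. For several of them the source label also names the other tissue, whereas the title and the tissue label name the same one, which was used.

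Fibrillar collagens are secreted as triple helices of 3 chains that pack side by side into the fibrils of connective tissue. Type I collagen, built from the Col1a1 and Col1a2 chains, is the main fibril former, and type III (Col3a1) is mixed into the same fibrils in soft tissue. Types V and XI are minor fibrillar collagens that start fibrils and limit their width, and the Col5a2 chain is known to join Col11a1 in mixed molecules. Types XII, XIV and XVI (Col12a1, Col14a1 and Col16a1) are fibril-associated collagens with interrupted triple helices, which sit on or between the fibrils and do not form fibrils by themselves. In mammary tumors most of this matrix is known to be laid down by fibroblasts. Since the tissue was sequenced whole, fewer cells of a type and less RNA per cell cannot be told apart in any value below.

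The genes lie on 8 chromosomes (GENCODE M21, GRCm38). The only neighbours among them are Col3a1 at chr1:45311538-45349706 on the plus strand and Col5a2 at chr1:45374321-45503282 on the minus strand, whose 3′ ends face each other across 24614 bases. Promoter sequence of RefSeq (GRCm38.p6), 250 bases before to 50 bases after the gene start, was matched by symbol for 6 of the 10 genes. The CCAAT box, a classical element of the collagen I promoters, was searched as CCAAT or its reverse complement ATTGG. It was held by 4 of the 6 promoters, against 37.4% of all 32851 promoters. Col3a1 and Col5a1, each at least 2-fold lower in Lung met in 4 of 5 tables, lacked it. No promoter was matched for Col1a1. GGGCGG, in either orientation, was in 5 of the 6 and in 35.7% of all promoters. TATAA, in either orientation, was in 1 of the 6, Col3a1, and in 24.9% of all promoters. The windows below, 30 bases each in the direction of transcription with the box in capitals, are shown because 2 of them belong to chains that were lower in Lung met in most tables and 2 to chains that were not.
Col1a2, chr6:4505497-4505526, plus strand: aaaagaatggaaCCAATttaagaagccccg
Col5a3, chr9:20815172-20815201, minus strand: gatctcagccagCCAATcagcgcgtggtgc
Col11a1, chr3:114030449-114030478, plus strand: gggaggcctgtgATTGGgtatgaccttcag
Col16a1, chr4:130047715-130047744, plus strand: cggcggtgcaggCCAATggccagtgcctcc
The box began 109 bases before the RefSeq gene start in Col1a2, 122 in Col5a3, 79 in Col11a1 and 113 in Col16a1. Col1a2 held another ATTGG at its RefSeq start itself. The GENCODE start of Col1a2, chr6:4504814, lies upstream of its printed window. By that annotation the Col1a2 boxes therefore lie inside the gene. These matches describe letters in a window and were not tested for binding.

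To ask how the collagen chains of the metastasis compared with those of the primary tumor, both tissues were set side by side in each model. In Her2, 7 of the 10 chains were at least 2-fold lower in Lung met, where 1.43% of all genes were. In BALB 7 of 10 were, against 2.40% of all genes, and in SEAGN 7 of 10, against 3.22%. The AKR-named table had 5 of 10, against 1.73%. C3Tag had 1 of 10, against 1.70%. No chain was at least 2-fold higher in any of the 5 tables, where 2.38% of all genes were in Her2, 7.42% in C3Tag, 2.26% in BALB, 2.86% in SEAGN and 7.31% in the AKR-named table. The median log2 ratio of the 10 chains was -1.16 in Her2, -0.22 in C3Tag, -1.52 in BALB, -2.19 in SEAGN and -1.07 in the AKR-named table, while the median over all genes stayed within 0.03 of 0 in each.

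**Figure D1:**
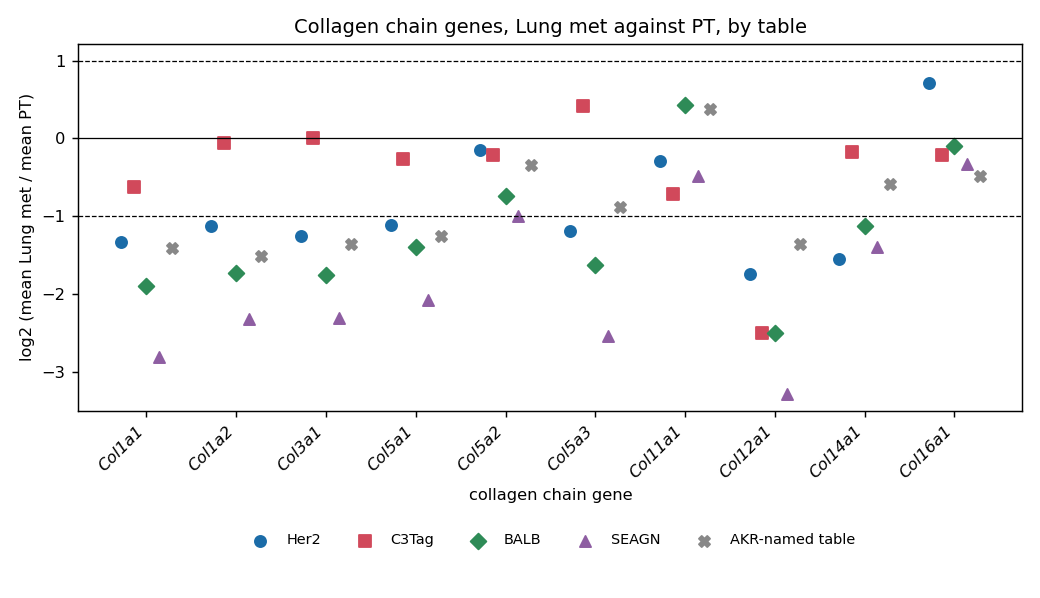
Each symbol is the log2 ratio of the authors' Lung met mean to their PT mean for 1 collagen chain gene (x axis) in 1 table (colour and shape), the solid line marks no difference and the dashed lines a 2-fold difference. Col12a1 lies below the lower dashed line in all 5 tables, and Col5a2, Col11a1 and Col16a1 lie between the dashed lines in all 5.

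**Figure D2:**
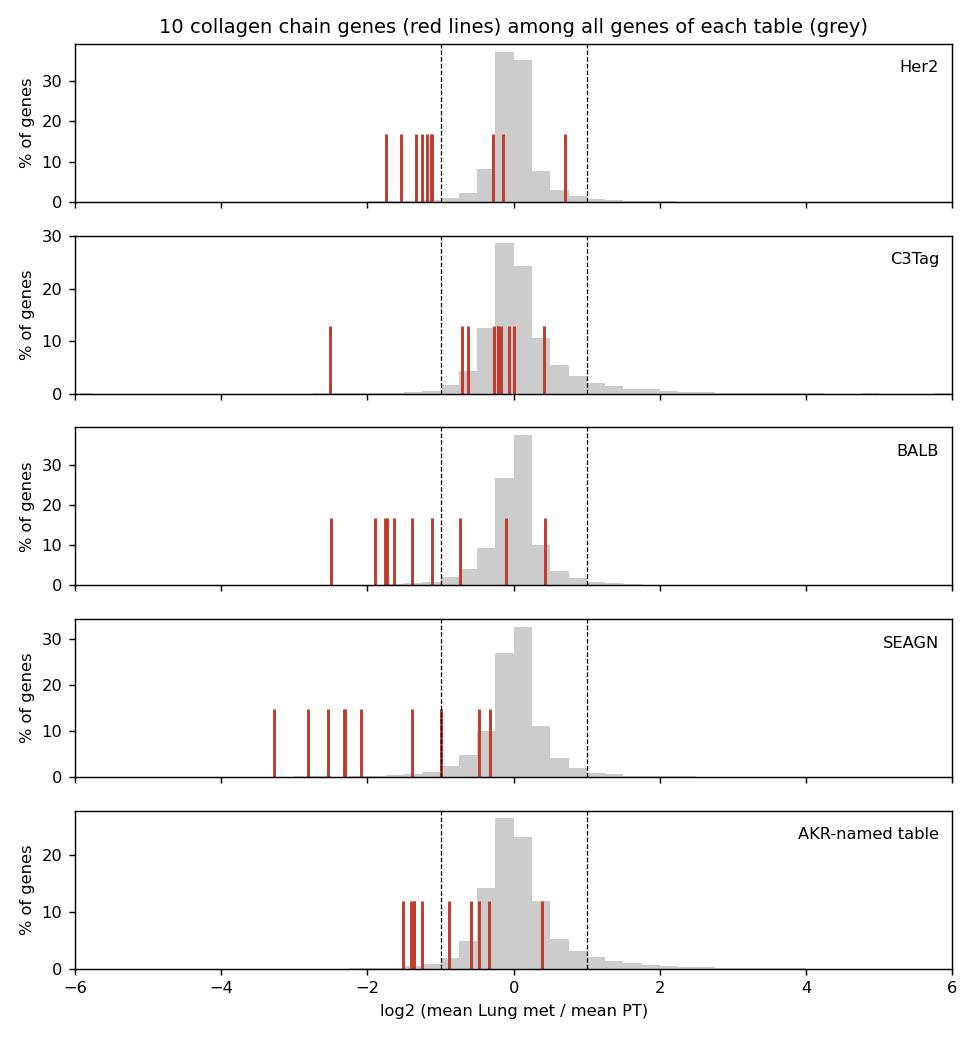
Grey bars give the percentage of all genes of a table in bins of 0.25 on the log2 scale of Lung met over PT, with values beyond 6 placed in the last bin, and red lines mark the 10 collagen chains. In Her2, BALB and SEAGN 7 of the 10 lines stand left of the lower 2-fold limit (dashed), and in C3Tag only Col12a1 does.

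Col1a1, the alpha-1 chain of type I collagen, had a mean of 3457 normalised reads in PT and 1369 in Lung met of Her2, a 2.53-fold difference. In BALB the means were 5297 and 1416 (3.74-fold), in SEAGN 7343 and 1047 (7.02-fold), and in the AKR-named table they were 5186 and 1951 (2.66-fold). In C3Tag 13112 in PT stood against 8522 in Lung met, a 1.54-fold difference that is short of the 2-fold limit. Col1a1 was thus lower in Lung met in all 5 tables, and by at least 2-fold in 4.

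Col1a2, its partner in the same triple helix, showed means of 5251 and 2401 in Her2, 2836 and 851 in BALB, 3919 and 783 in SEAGN, and 6273 and 2194 in the AKR-named table. The Lung met mean was lower by 2.19-fold to 5.00-fold across these 4. In C3Tag the means were 9620 in PT and 9217 in Lung met, a log2 ratio of -0.06 that lies above that of 40.7% of all genes of the table.

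Col3a1, the only chain of type III collagen, was at 9291 in PT and 3886 in Lung met of Her2, 2620 and 776 in BALB, 4053 and 820 in SEAGN, and 10414 and 4044 in the AKR-named table. These are log2 ratios of -1.26, -1.76, -2.31 and -1.36, each above that of Col1a1 in the same table, by 0.05 to 0.51. In C3Tag the means were 9173 and 9245, and the log2 ratio of 0.01 was the only one of Col3a1 above 0.

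The 3 chains of type V collagen did not move as a block. Col5a1, the chain present in most type V molecules, was lower by 2.16-fold in Her2 (691 in PT, 320 in Lung met), 2.63-fold in BALB (572 and 217), 4.24-fold in SEAGN (805 and 190) and 2.38-fold in the AKR-named table (797 and 335). In C3Tag it was at 2579 and 2143, 1.20-fold lower. Its log2 ratios followed those of Col1a1 with smaller size in every table.

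Col5a2, the second chain of type V, passed 2-fold in no table. Its means were 2839 and 2558 in Her2, 3306 and 2842 in C3Tag, 650 and 389 in BALB, 832 and 418 in SEAGN, and 2227 and 1764 in the AKR-named table. All 5 log2 ratios were below 0, from -0.99 in SEAGN to -0.15 in Her2. The SEAGN value, a 1.99-fold difference, was the closest to the limit from outside, and Col5a1 in Her2, at 2.16-fold, and Col14a1 in BALB, at 2.18-fold, were the closest from inside. Col5a2 thus stood apart from its genomic neighbour Col3a1 in Her2, where 1.11-fold compares with 2.39-fold, and in BALB, where 1.67-fold compares with 3.38-fold.

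Col5a3, the rarer chain of type V, had the lowest level per kb of the 10 in both tissues of every table except C3Tag. It was lower in Lung met by 2.28-fold in Her2 (299 and 131), 3.10-fold in BALB (96.1 and 30.9) and 5.83-fold in SEAGN (121 and 20.8), and by 1.85-fold in the AKR-named table (137 and 74.4). In C3Tag the order was the opposite, with 724 in PT and 964 in Lung met, a log2 ratio of 0.41 that was the highest of the 10 chains there.

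Col11a1, the alpha-1 chain of type XI collagen, is known from cartilage and from activated stroma of carcinomas. It passed 2-fold in no table and had no common direction. Its mean was 17441 in PT and 14313 in Lung met of Her2, 4523 and 2760 in C3Tag, and 1221 and 875 in SEAGN, where Lung met was lower by 1.22-fold to 1.64-fold. In BALB it was at 1493 and 2016 and in the AKR-named table at 8380 and 10938, where Lung met was higher by 1.35-fold and 1.31-fold. In BALB its log2 ratio of 0.43 compares with -1.90 for Col1a1 in the same 2 groups.

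Among the fibril-associated chains, Col12a1 was the 1 member of the family that was at least 2-fold lower in Lung met in all 5 tables. Type XII collagen binds the surface of type I fibrils and is known from tissues under tension. The PT and Lung met means were 3347 and 995 in Her2 (3.36-fold), 7804 and 1372 in C3Tag (5.69-fold), 2763 and 489 in BALB (5.65-fold), 3261 and 334 in SEAGN (9.75-fold), and 2420 and 940 in the AKR-named table (2.57-fold). It had the lowest log2 ratio of the 10 chains in Her2, C3Tag, BALB and SEAGN, and ranked 4 from the lowest in the AKR-named table. In C3Tag 0.300% of all genes had a lower log2 ratio, and in SEAGN 0.0980%.

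Col14a1, the chain of type XIV collagen, which binds fibrils at their surface too, was at 1046 in PT and 358 in Lung met of Her2 (2.92-fold), 261 and 120 in BALB (2.18-fold), and 357 and 136 in SEAGN (2.63-fold). In the AKR-named table the means were 567 and 378, a log2 ratio of -0.59, and in C3Tag 753 and 665, a log2 ratio of -0.18. All 5 were in the direction of a lower Lung met mean.

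Col16a1, the chain of type XVI collagen, passed 2-fold in no table. Its means were 1727 in PT and 2818 in Lung met of Her2, where the log2 ratio of 0.71 was above that of 95.9% of all genes and was the highest of any chain in any table. Elsewhere the Lung met mean was below PT by 1.16-fold in C3Tag (4415 and 3809), 1.07-fold in BALB (717 and 668), 1.26-fold in SEAGN (601 and 478) and 1.40-fold in the AKR-named table (2697 and 1933).

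Counted without the AKR-named table, Col1a1, Col1a2, Col3a1, Col5a1, Col5a3 and Col14a1 were each at least 2-fold lower in 3 of 4 tables, the exception being C3Tag every time, Col12a1 in 4 of 4, and Col5a2, Col11a1 and Col16a1 in none. With it, Col1a1, Col1a2, Col3a1 and Col5a1 reached 4 of 5 tables and Col12a1 5 of 5. C3Tag and Her2 share the FVB background and differ in the oncogene, and 6 of the 10 chains had a higher log2 ratio in C3Tag than in Her2, as did 52.7% of all genes found in both.

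BALB and SEAGN are 2 crosses with the same oncogene. All 10 chains had a lower log2 ratio in SEAGN than in BALB, where 51.9% of the 14144 genes found in both did. The median SEAGN log2 ratio minus that of BALB was -0.64 for the chains and -0.01 for all genes. The gap was widest for Col11a1, Col5a3 and Col1a1, at -0.91 each, and narrowest for Col16a1 at -0.23 and Col5a2 at -0.25. With no value of a single animal, whether these gaps exceed the spread between animals was not tested.

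Levels were compared between chains after division of each mean by the length of the longest annotated transcript in kb. In C3Tag, BALB and SEAGN Col1a1 was the most abundant of the 10 chains in PT by this measure, at 2211, 893 and 1238 normalised reads per kb. In Her2 PT it ranked 4 with 583 per kb, behind Col11a1 at 2275, Col3a1 at 1670 and Col1a2 at 982. In the AKR-named table Col3a1 led PT with 1872 per kb, followed by Col1a2 at 1173, Col11a1 at 1093 and Col1a1 at 874. Col11a1, a minor fibrillar chain by its name, was therefore the leading transcript of the 10 in Her2 tumors, above 95.6% of all genes of that table per kb.

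**Figure D3:**
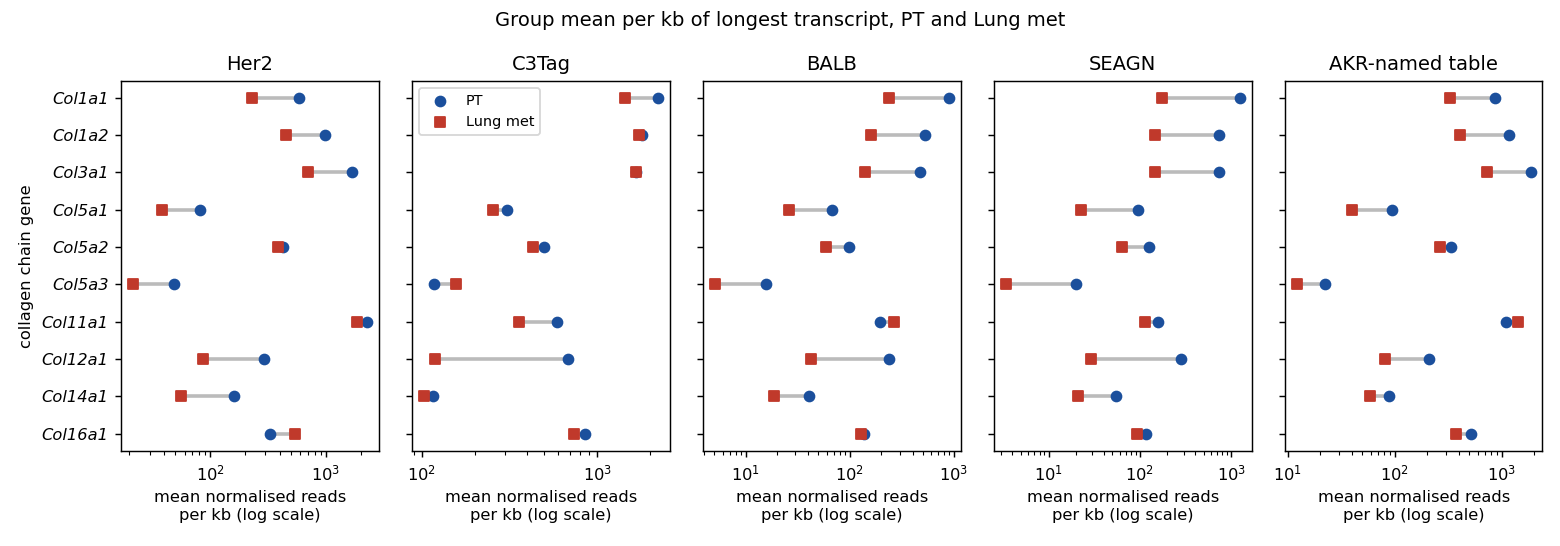
Authors' group mean per kb of the longest transcript (x axis, log scale, with its own range in each panel) for the 10 collagen chains in PT (blue circles) and Lung met (red squares) of each table, with a grey line joining both tissues. Within C3Tag and within SEAGN the widest gap is that of Col12a1, and Col11a1 is the highest point in both tissues of Her2.

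The share of each chain in the summed level per kb of the 10 differed between tissues. Col11a1 made up 33.2% of the sum in Her2 PT and 42.7% in Lung met, 7.24% and 24.4% in BALB, 4.48% and 14.0% in SEAGN, and 17.4% and 38.3% in the AKR-named table. It was the leading chain in Lung met of Her2, BALB and the AKR-named table. In C3Tag its share was 6.69% in PT and 5.16% in Lung met, and the leading Lung met chain there was Col1a2 with 24.7%. These ranks depend in part on the length used. With the union of all exons Col1a1 led Lung met of C3Tag with 27.997%, above Col1a2 at 16.0%, and Lung met of BALB with 29.1%, above Col11a1 at 21.4%, while Col11a1 still led in Her2 and the AKR-named table. Col16a1 had a higher share in Lung met than in PT in all 5 tables, with 9.62% in PT and 10.5% in Lung met of C3Tag and 3.25% and 11.3% in SEAGN. Col1a1 had a lower share in Lung met in all 5, from 34.8% and 21.6% in SEAGN to 8.51% and 5.28% in Her2.

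**Figure D4:**
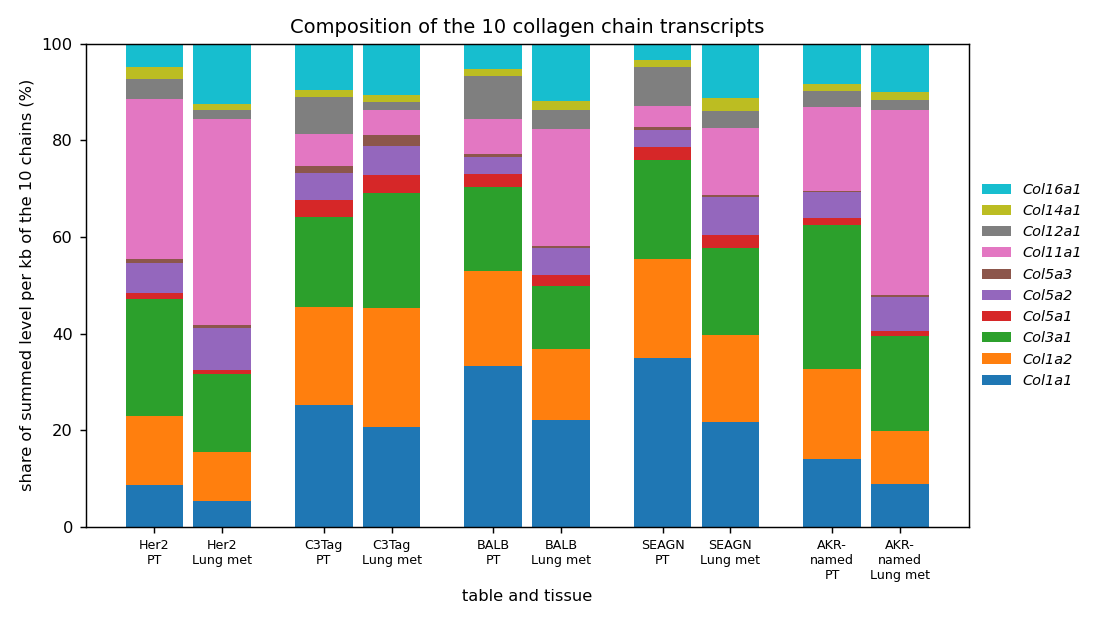
Stacked bars give the share (%) of each of the 10 chains in their summed level per kb, for PT and Lung met of each table. The Col11a1 segment (pink) is taller in Lung met than in PT in Her2, BALB, SEAGN and the AKR-named table and shorter in C3Tag, and the Col16a1 segment at the top is taller in Lung met in all 5.

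The sum of the 10 levels per kb went from 6854 in PT to 4374 in Lung met of Her2, 8815 to 6977 in C3Tag, 2689 to 1079 in BALB, 3554 to 816 in SEAGN, and 6282 to 3722 in the AKR-named table. On the log2 scale the sums differed by -0.65, -0.34, -1.32, -2.12 and -0.76 in that order. In Her2, BALB, SEAGN and the AKR-named table the sum differed by less than the median chain did, and in C3Tag by more. Col11a1 and Col16a1, neither of them 2-fold lower in any table, held 38.03% of the Her2 PT sum together.

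Ratios of 2 chains in the same tissue do not depend on how the tissue was scaled. Col1a1 to Col1a2 per kb was 0.59 in PT and 0.51 in Lung met of Her2, 1.23 and 0.83 in C3Tag, 1.684 and 1.501 in BALB, 1.69 and 1.20 in SEAGN, and 0.75 and 0.80 in the AKR-named table. It was lower in Lung met in 4 of 5 tables. The size of this ratio rests on the length used, since with the union of all exons, which is much longer for Col1a2, it was 2.10 times larger in every group and lay above 1 in all of them, from 1.08 to 3.55. The difference between tissues does not depend on the length.

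Col3a1 to Col1a1 was higher in Lung met in all 5 tables, by 0.05 in the AKR-named table to 0.63 in C3Tag on the log2 scale. Col5a1 to Col1a1, the proportion of a fibril-starting chain to the main one, was also higher in Lung met in all 5, by 0.16 to 0.73. Col5a2 to Col5a1 was higher in all 5, from 5.21 to 10.1 in Her2, 1.31 to 2.79 in SEAGN, 3.54 to 6.69 in the AKR-named table, 1.44 to 2.27 in BALB, and 1.63 to 1.68 in C3Tag. Col16a1 to Col1a1 had the widest range, from 0.57 to 2.34 in Her2 and from 0.09 to 0.52 in SEAGN, and was higher in Lung met in all 5. Col12a1 to Col1a1 was lower in Lung met in 4 of 5 tables, most so in C3Tag with 0.31 in PT and 0.08 in Lung met. Col14a1 to Col1a1 was higher in 4 of 5 and Col5a3 to Col5a1 in 2 of 5.

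Genes of the same pathway were read from lists chosen with earlier results of these data known. By table, 1.43% to 3.22% of all genes were at least 2-fold lower and 2.26% to 7.42% higher. The counts of each pathway and marker list below are to be read beside these shares. Of 18 genes that modify and fold the chains, such as the prolyl and lysyl hydroxylases and the collagen chaperone Serpinh1, 17 or 18 were found per table. Between 0 and 4 of them were at least 2-fold lower, all 4 in SEAGN, 0 or 1 was higher, and the medians ran from -0.22 to 0.23. Serpinh1 itself, which is outside the rule for named genes and was chosen after its values were seen, had log2 ratios of -0.10 in Her2, 0.31 in C3Tag, -0.19 in BALB, -0.05 in SEAGN and 0.60 in the AKR-named table. Serpinh1 was therefore within 2-fold in Her2, BALB and SEAGN, where 7 of the 10 chains were not. Most genes of those tables were within 2-fold too. In that order, 1.43%, 2.40% and 3.22% of all genes were at least 2-fold lower and 2.38%, 2.26% and 2.86% higher. The value of Serpinh1 does not stand for its list, of which 4 other genes were at least 2-fold lower in SEAGN.

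Of 11 genes of propeptide processing and fibril assembly, 9 or 10 were found, with 1 to 4 lower, 0 to 3 higher and medians of -0.99 in SEAGN to 0.29 in C3Tag. Lum, lumican, a small proteoglycan on collagen fibrils, was lower in all 5 tables, with means of 420 in PT and 23.3 in Lung met of Her2, 412 and 133 in C3Tag, 115 and 4.45 in BALB, 198 and 4.73 in SEAGN, and 893 and 54.2 in the AKR-named table. Of 9 collagen receptors and uptake genes, 0 or 1 was lower and 0 to 2 were higher per table, and the medians ran from -0.24 to 0.29. Of 10 genes of the TGF-beta axis, a known inducer of collagen genes, none was at least 2-fold lower in any table, up to 2 were higher, both in C3Tag, and the medians ran from 0.08 to 0.22. Of 11 other fibrillar and fibril-associated collagens, such as Col2a1, Col9a1 and Col27a1, 6 to 8 were found per table, 1 was lower in 1 table (the AKR-named), 1 was higher in C3Tag and 1 in the AKR-named table, and the medians ran from -0.53 to 0.39.

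Markers of cells that a piece of tumor or lung can hold differed between the tissues too, some in the direction of the collagen chains and some in the other, and their part in the result was not tested. Of 8 activated fibroblast markers, 7 or 8 were found and 4 or 5 were at least 2-fold lower in every table, C3Tag included, with medians of -1.68 to -0.96. Their summed level went from 8539 in PT to 3629 in Lung met of Her2, 14892 to 11722 in C3Tag, 3395 to 1590 in BALB, 4110 to 2223 in SEAGN and 13597 to 5235 in the AKR-named table. Sums of marker lists, here and below, are of means not divided by length and follow the most abundant genes. Postn, chosen after its values were seen, made up 5183 of the PT sum in Her2 and 9050 in C3Tag. Thy1, a surface protein of fibroblasts, was lower in all 5, from 2.65-fold in the AKR-named table to 6.41-fold in SEAGN. Pdgfra and Pdgfrb, fibroblast and pericyte receptors that lie outside the rule for named genes and were chosen after their values were seen, were not: Pdgfra had a higher Lung met mean in all 5 tables, by 0.44 to 0.94 on the log2 scale, and Pdgfrb lay between -0.32 and 0.65. Fibroblast markers thus did not share 1 direction. Lum and Dcn belong both to this list and to that of propeptide processing and fibril assembly, so the counts of these lists overlap.

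Of 6 lung fibroblast markers, 3 to 5 were found, none was 2-fold lower and 1 to 3 were at least 2-fold higher. Mfap4, a matrix protein of elastic fibers, was higher in all 5 tables by 1.05 to 2.02 on the log2 scale. Inmt and Wnt2, chosen after their values were seen, were found in the AKR-named table only, with log2 ratios of 6.91 and 1.21. Npnt and Itga8, chosen after their values were seen, passed 2-fold in no table. Both were already abundant in PT of Her2, with means of 41503 and 11169.5. The log2 ratio of Npnt ran from -0.73 in the AKR-named table to 0.83 in C3Tag, and that of Itga8 from 0.28 to 0.87. Tcf21 had no row with means of both tissues in any of the 5 tables. Of 6 smooth muscle and pericyte markers, 3 to 6 were found, with 0 or 1 lower, 0 or 1 higher and medians of -0.54 to 0.45. Des, chosen after its values were seen, was 3.15-fold lower in BALB and 8.65-fold higher in the AKR-named table. Their summed level went from 4322 to 4917 in Her2 and from 1491 to 1117 in BALB.

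Most of the lung epithelium markers found had a higher mean in Lung met. All 5 alveolar type 1 markers were found, 4 or 5 were at least 2-fold higher, and the medians ran from 3.37 to 4.07. Ager, the receptor that marks alveolar type 1 cells, was at 62.5 in PT and 1847 in Lung met of Her2 and at 80.4 and 2166 in C3Tag. Clic5, Hopx and Rtkn2 were higher in all 5 tables too. Aqp5, chosen after its values were seen, was at least 2-fold higher in C3Tag only. Its log2 ratio was -0.13 in Her2, -0.66 in BALB, 0.73 in SEAGN and 0.06 in the AKR-named table. Of 6 alveolar type 2 markers 3 were found, and 2 or 3 were higher, Lamp3 and Sftpd in all 5 tables. The defining Sftpc, Sftpb and Sftpa1 had no row with means of both tissues in any of the 5 tables. Abca3, also chosen after its values were seen, was at least 2-fold higher in C3Tag only. Its log2 ratio was -0.02 in Her2, 0.36 in BALB, 0.54 in SEAGN and -0.21 in the AKR-named table. Of 6 endothelial markers, 1 to 6 were higher, with medians of 0.57 to 1.71, and Vwf, the clotting protein of endothelium, was higher in all 5 by 1.62 to 3.23 on the log2 scale.

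The 7 mammary tumor epithelium markers were found in all tables except that 6 were in the AKR-named table, none was lower, and their medians of 0.02 to 0.25 lay near 0. The keratin Krt19, chosen after its values were seen, was the 1 marker at least 2-fold higher in Lung met, in Her2 (72.3 in PT and 1014 in Lung met) and in BALB (1370 and 3215). Skeletal muscle markers, of which 1 to 4 of 5 were found, were lower in Lung met wherever found in Her2, C3Tag, BALB and SEAGN, with medians of -4.67 to -3.25 and a summed level of 353 in PT and 31.1 in Lung met of Her2. In the AKR-named table, with a summed level of 37.0 in PT and 60.5 in Lung met, 2 of 4 were higher. The 1 adipocyte marker found, in 4 tables, was 2-fold lower in SEAGN only. Leukocyte markers, 3 or 4 of 5 found, had medians of 0.07 to 0.75, with no member 2-fold lower and 0 or 1 at least 2-fold higher per table.

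**Figure D5:**
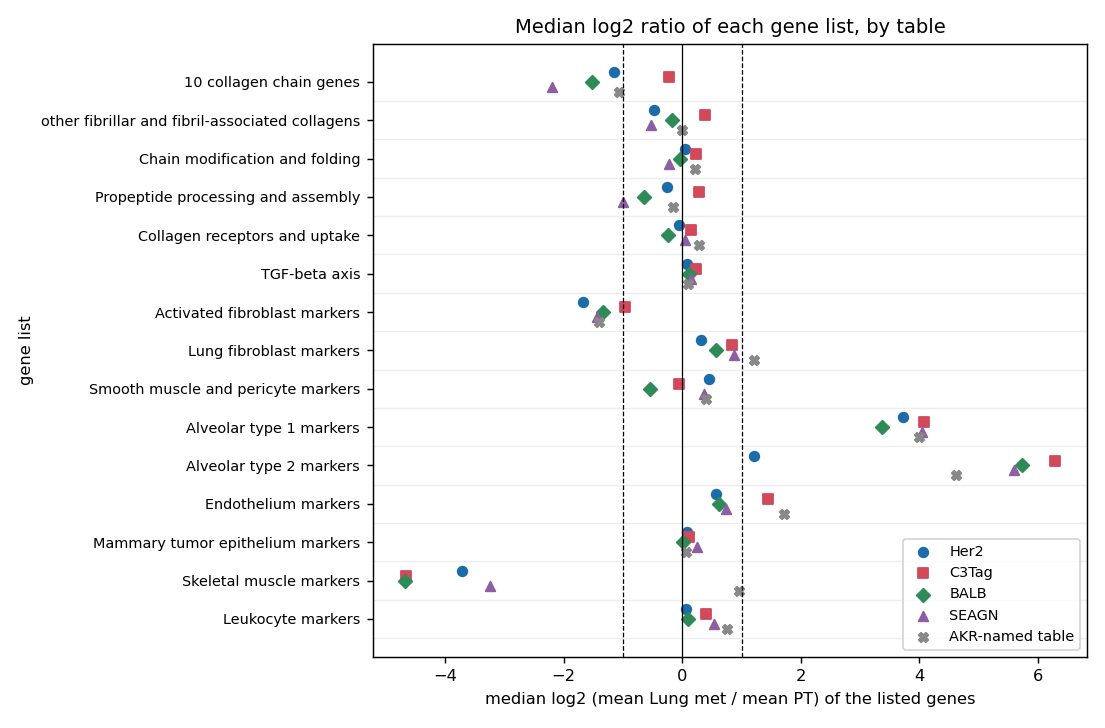
Each symbol is the median log2 ratio of Lung met over PT of the found genes of 1 list (y axis) in 1 table (colour and shape), with dashed lines at a 2-fold difference and the adipocyte list, with at most 1 gene found, left out. The 10 collagen chains and the activated fibroblast markers lie left of 0 in all 5 tables, alveolar and endothelial markers lie right of 0 in all 5, and tumor epithelium lies near 0.

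In C3Tag Col1a1, Col1a2, Col3a1, Col5a1, Col5a3 and Col14a1 lay nearer to a log2 ratio of 0 than in any other table, which was not so for Col5a2, Col11a1, Col12a1 and Col16a1. Its fibroblast markers did not all follow. Lum was lower by 3.10-fold and Thy1 by 3.29-fold in C3Tag, where Col1a2 was 1.04-fold lower and Col3a1 1.01-fold higher. Dcn, decorin, another fibril proteoglycan and chosen after its values were seen, was higher in C3Tag Lung met (730 in PT and 1229 in Lung met) and lower in the other 4 tables. Markers of alveolar type 1 cells were all 5 higher in C3Tag.

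Across the 5 tables, 11 of 11920 genes with a mean of at least 10 in either tissue were at least 2-fold lower in Lung met in every one. They were Lum, Col12a1, Thbs2, Frem1, Cpxm2, Thy1, Fbn2, Col8a2, Aoc3, Cpz and Aspn, a list found by its values. Besides Col12a1 it held 1 other collagen, Col8a2, and the matrix proteins Lum, Thbs2, Fbn2, Aspn and Frem1. Their median log2 ratios over the tables ran from -4.17 for Lum to -1.37 for Aspn, and that of Col12a1, -2.50, was second.

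The genes whose log2 ratios lay nearest to the median profile of the 10 chains were sought among 11910 other genes over the 5 tables by Euclidean distance. They were Lrrn2 (distance 0.65), Adam12 (0.74), Dpyd (0.76), Dchs2 (0.77) and Col6a2 (0.79). Adam12 is a metalloprotease known from activated stroma, and Col6a2 is a chain of type VI collagen, which forms beaded filaments beside the fibrils. Of the chains themselves, Col5a1 lay 0.25, Col3a1 0.47 and Col1a2 0.54 from their own median, and no other gene lay nearer than these. Col11a1 was at 3.14, with 43.7% of other genes nearer to the median than it was, Col16a1 at 3.05 with 31.6%, and Col12a1 at 2.80 with 11.5%. These distances describe the family's spread, since the chains themselves set the median.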

How the data were processed

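Total RNA of PT and Lung met was sequenced by the authors, from stranded ribosomal-depleted libraries per the labels and from TruSeq mRNA libraries per the paper's methods. The submitters' processing notes name STAR 2.7.8a, DESeq2 and the build mm39, while the methods name Partek Flow with mm9 or mm10. The deposited tables hold, per gene, a signal for each tissue, the authors' least-squares mean of normalized reads, by a normalization not given in the sources used here. They also hold the authors' comparison (ratio, fold change, p-value and FDR), which was not used, and the Myc table holds nothing else. Depth per sample is unknown and no interval was computed.

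Groups were taken from sample titles. Log2 ratios of Lung met over PT and counts past a 2-fold limit were computed over all genes of each table with Python 3.11.15, numpy 2.4.6 and pandas 2.3.3, and tested on simulated data. Figures were drawn with matplotlib 3.10.9. Levels per kb used the longest GENCODE M21 transcript (GRCm38), matched by identifier or, in BALB and SEAGN, whose identifiers are those of the BALB/cJ annotation, by symbol. The members and lists were chosen with earlier results of these data known. Genes named were all 10 members, up to 4 per list that were at least 2-fold different in the same direction in all 5 tables with a mean of at least 10 in either tissue, taken by median size, and the 5 genes nearest to the members' median. Others are said to be chosen after their values were seen. Alternatives were 1 or 10 added to both means, other scalings, folds of 1.5 and 3, a minimum mean of 10 and other gene lengths.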

Additional observations from a re-analysis of the deposited data

How the results depend on the processing

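The direction of the median of the 10 chains held under all alternatives in Her2, BALB, SEAGN and the AKR-named table. In C3Tag, rescaling both tissues to equal sums moved the median from -0.22 to 0.59 and put 1 chain at least 2-fold higher. There 1 gene, Gm22614, held 38.3% of the PT sum, and with the most abundant gene of each tissue left out, an alternative chosen after seeing the data, the median was -0.11 and no chain was 2-fold higher. With a fold of 1.5, 3 chains were lower in C3Tag, against 5.61% of all genes, and 1 was higher in Her2, against 5.42%. With a fold of 3, 1 chain was lower in Her2, against 0.549%, and 0 in the AKR-named table, against 0.471%. With exon union lengths, Col1a1 to Col1a2 was 1.25 in PT and 1.08 in Lung met of Her2, 2.58 and 1.75 in C3Tag, 3.54 and 3.15 in BALB, 3.55 and 2.53 in SEAGN, and 1.57 and 1.68 in the AKR-named table, and coding lengths changed no ratio by over 1.5 times. No paired analysis was possible because no value of a single animal was analysed, and for the same reason the spread between animals is unknown, no replicate could be left out and depth sets no limit that can be stated.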

Other observations

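Between 25 and 27 other collagen genes, the remaining fibrillar and fibril-associated ones included, were found per table. Of these, 5 of 26 were at least 2-fold lower in Lung met in Her2, 2 of 27 in C3Tag, 7 of 26 in BALB, 7 of 25 in SEAGN and 4 of 27 in the AKR-named table, while 2, 9, 0, 3 and 7 were higher. In the same order, 1.43%, 1.70%, 2.40%, 3.22% and 1.73% of all genes were lower. For higher means the shares of all genes were 2.38%, 7.42%, 2.26%, 2.86% and 7.31%. The genes named below were chosen after their values were seen. Col4a1, a chain of the type IV collagen of basement membranes, was at 5346 in PT and 15657 in Lung met of C3Tag and at 3319 and 9157 in the AKR-named table, and its log2 ratio lay between -0.07 and 0.32 in Her2, BALB and SEAGN. Col15a1, a basement membrane zone collagen, had a log2 ratio of 1.65 in C3Tag and of -2.23 to -0.84 in the other 4 tables. Col8a2, a chain of the short-chain type VIII collagen, was lower in all 5 tables, by -2.42 to -1.50.

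Col9a1, a fibril-associated chain known from cartilage, was at 46796 in PT and 40601 in Lung met of Her2, above Col11a1 in both tissues per kb, and at 7504 and 7651 in the AKR-named table. It was not analysed here for C3Tag. Col2a1, the main fibrillar chain of cartilage, was at 279 in PT and 1899 in Lung met of C3Tag, a log2 ratio of 2.77. In BALB the Col2a1 means were 44.2 and 51.0, a log2 ratio of 0.21. Col2a1 was not analysed here for Her2, SEAGN or the AKR-named table. Fn1, fibronectin, which guides fibril assembly, had a higher Lung met mean in all 5 tables, by 0.36 in SEAGN to 1.58 in the AKR-named table on the log2 scale.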
